A study of Mus musculus with 120 samples.

Results

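Purkinje cells turn part of their synaptic input into calcium signals through receptors that act on a G protein of the Gq class. Gq switches on phospholipase C beta, which cuts a membrane lipid into diacylglycerol and inositol trisphosphate (IP3), and IP3 opens its receptor on the endoplasmic reticulum and lets calcium out. Calcium is then pumped back into the store, IP3 is broken down by a phosphatase, and calcium also enters through P/Q-type channels of the cell membrane. Purkinje cells are the output neurons of the cerebellar cortex, and their calcium handling is a long-studied subject in the inherited ataxias.

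Here 6 genes of this route were followed among the 55573 genes of the count tables, matched by their symbols, and all 6 were found and passed the filter on low counts in every comparison. Gnaq encodes the alpha subunit of Gq, Plcb4 the phospholipase C beta of the route, Itpr1 the IP3 receptor type 1, Inpp5a the phosphatase that removes a phosphate from IP3, Atp2a2 the calcium pump SERCA2 of the endoplasmic reticulum, and Cacna1a the pore subunit of the P/Q-type channel.

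RNA came from brain regions of C57BL/6J mice of 3 genotypes, a model of spinocerebellar ataxia type 1. The 175Q mice carried a knock-in Atxn1 allele with an expanded CAG repeat and an allele of normal length, labelled 175Q/2Q. In the 175QK772T mice the expanded allele also had a lysine changed to threonine within the signal that takes ataxin-1 into the nucleus, and WT mice carried neither. A group was 4 mice of one genotype, sampled at 10 or at 26 weeks, and every mouse gave 5 regions: cerebellum, striatum, cortex, hippocampus and, as the fifth, brainstem in the younger or medulla in the older mice. The allele sits in the mouse's own Atxn1 gene and is not restricted to one cell type, and the 175QK772T libraries of 10 weeks came from 3 females and 1 male, against 2 and 2 in every other group.

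The 120 libraries held 68.2 to 104 M counted read pairs at 10 weeks and 28.03 to 57.3 M at 26 weeks. Libraries of both ages were made and sequenced apart, and each genotype was set against mice of its own age. Atxn1, the targeted gene, stood at 54.4 ± 2.22 CPM (counts scaled to 1 M per library) in 175Q and 61.9 ± 1.72 in 175QK772T cerebella, against 49.2 ± 1.63 in WT cerebella of 10 weeks (SD, n = 4 each); a total of all alleles does not tell the repeat. Cerebellar libraries of 175Q replicate 4 and 175QK772T replicate 2 at 26 weeks had 13.5% and 11.5% of counts on mitochondrial genes, against 3.89 to 5.01% in the other 10 of that set. The library of WT cortex replicate 1 at 26 weeks stood apart in marker genes, with a summed level of oligodendrocyte markers of 15001 CPM against 5171 to 6400 in the other WT cortex libraries. The main results that these 3 libraries touch are given with all libraries and then without them. These are bulk libraries, so fewer cells of a type and less RNA per cell cannot be told apart. P-values of fits within a region measure the spread between these mice. The main fits over several regions had no term for the mouse, though each mouse gave 5 libraries, so their p-values measure the spread between libraries.

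The 6 genes lie on 6 chromosomes in the GRCm38 annotation. Itpr1 (ENSMUSG00000030102) spans chr6:108213096-108551109 on the plus strand, Plcb4 (ENSMUSG00000039943) chr2:135659011-136014593 on the plus strand, and Gnaq (ENSMUSG00000024639) chr19:16132831-16387463 on the plus strand. Inpp5a (ENSMUSG00000025477) spans chr7:139389109-139579652 on the plus strand, Atp2a2 (ENSMUSG00000029467) chr5:122453513-122502225 on the minus strand, and Cacna1a (ENSMUSG00000034656) chr8:84338639-84640246 on the plus strand. Inpp5a shares 246 exonic bases, 4.36% of its exonic length, with Nkx6-2 on the opposite strand. The 10-week counts kept strands apart, and for 26 weeks the strand setting is not given in the sources used here.

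The first start sites of Inpp5a and Gnaq are shown because Inpp5a fell most of the 6 in the 10-week 175Q cerebellum and Gnaq was not called there. The 250 bases before each start site in the RefSeq table (GRCm38.p6, plus strand) are chr7:139388859-139389108 for Inpp5a and chr19:16132434-16132683 for Gnaq, with no capitals because none of the motifs searched was present.
Inpp5a: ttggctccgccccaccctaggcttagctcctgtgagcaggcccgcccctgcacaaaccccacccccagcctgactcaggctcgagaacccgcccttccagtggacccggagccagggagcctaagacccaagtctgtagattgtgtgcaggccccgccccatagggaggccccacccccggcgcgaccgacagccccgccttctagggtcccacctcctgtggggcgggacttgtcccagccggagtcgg
Gnaq: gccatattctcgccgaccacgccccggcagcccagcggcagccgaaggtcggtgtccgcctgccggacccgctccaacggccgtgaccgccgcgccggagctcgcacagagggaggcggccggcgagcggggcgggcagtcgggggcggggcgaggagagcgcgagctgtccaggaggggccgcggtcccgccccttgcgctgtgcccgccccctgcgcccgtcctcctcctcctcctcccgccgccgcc
The motifs were TGAATGAA and TGAATGGA, which the ataxin-1 partner Capicua recognises, and AGGTCA, the half-site of the nuclear receptor RORA, on both strands. They occur in 1.30%, 1.21% and 16.3% of the 32851 promoter windows of the table, each of 250 bases before and 50 after a start site. None was in the 5 windows listed for Plcb4, Gnaq and Inpp5a, which says only that these letters are not there. The windows of these first start sites were rich in G and C, with 70.3% in Inpp5a, 75.0% in Gnaq and 84.0% in Plcb4, against a median of 52.67% over all promoters.

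In WT mice 4 of the 6 genes had by far their highest level in the cerebellum at both ages. Levels between regions and between genes are given as TPM, counts per base of exonic length scaled to 1 M per library, which takes gene length into account. Inpp5a, the IP3 phosphatase, averaged 320 ± 15.5 TPM in the 10-week cerebellum, against 24.1 to 46.1 TPM in the other regions. Itpr1 averaged 724 ± 44.2 TPM in the cerebellum, followed by striatum at 241 ± 16.7, cortex at 170 ± 11.5, hippocampus at 111 ± 8.15 and brainstem at 27.6 ± 5.56 TPM, and no neighbours in this order overlapped. Plcb4 followed another order, with 163 ± 3.61 TPM in the cerebellum and then brainstem at 68.4, cortex at 42.4, striatum at 18.4 and hippocampus at 11.4 TPM, again without overlap between neighbours. Cacna1a averaged 149 ± 12.8 TPM in the cerebellum and 35.8 to 69.7 TPM elsewhere, with brainstem and striatum overlapping.

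Gnaq and Atp2a2 were spread over the brain. Gnaq was highest in the hippocampus, at 184 ± 4.71 TPM, with cortex at 136 and cerebellum at 126 overlapping below it, then brainstem at 101 and striatum at 89.2 TPM. Atp2a2, which every cell uses for its calcium store, was at 747 ± 7.02 TPM in the cerebellum and 509.6 ± 14.9 TPM in the hippocampus, with cortex, brainstem and striatum overlapping in between. In a fit over the 5 WT regions of 10 weeks, cerebellum over the mean of the others gave log2 differences of 3.08 ± 0.03 for Inpp5a, 2.64 ± 0.07 for Itpr1, 2.41 ± 0.06 for Plcb4, 1.52 ± 0.03 for Cacna1a, 0.28 ± 0.04 for Atp2a2 and -0.10 ± 0.03 for Gnaq. All 6 passed an adjusted p of 0.05 in edgeR, where 70.4% of all genes did; the call of Gnaq (adjusted p = 0.010) was lost without WT replicate 2 and with no filter on low counts, at -0.07 in both and an adjusted p of at most 0.15.

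At 26 weeks the order was alike: Inpp5a differed by 2.96 ± 0.05, Itpr1 by 2.89 ± 0.14, Plcb4 by 2.60 ± 0.10, Cacna1a by 1.70 ± 0.08 and Atp2a2 by 0.57 ± 0.06 on the log2 scale, and Gnaq by 0.05 ± 0.08 (adjusted p = 0.57). So 5 of 6 passed, where 64.5% of all genes did, and the same 5 passed without the WT cortex library that stood apart, where 67.5% did. Itpr1 stood at 781 ± 103 TPM in the 26-week WT cerebellum, Inpp5a at 306 ± 25.7, Plcb4 at 177 ± 20.1, Cacna1a at 167 ± 19.8, Atp2a2 at 868 ± 104 and Gnaq at 141 ± 10.8 TPM. Neighbouring regions overlapped more often than at 10 weeks, among them cortex and hippocampus for Itpr1, where the WT cortex library that stood apart had 73.9 TPM.

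**Figure D1:**
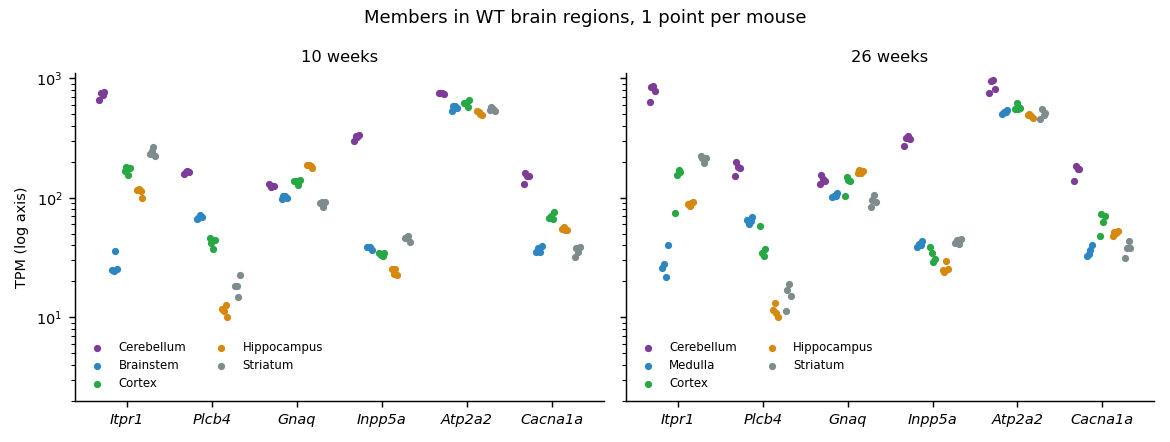
TPM (log axis) of the 6 genes in WT regions, 10 weeks on the left and 26 weeks on the right, 1 point per mouse and 4 per region. Itpr1, Plcb4, Inpp5a and Cacna1a stand highest in the cerebellum without overlap, while Gnaq is highest in the hippocampus.

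The relatives of the 6 genes were mostly lower in the WT cerebellum. At 10 weeks Itpr2 averaged 5.26 TPM and Itpr3 14.3 TPM, against 724 TPM for Itpr1. Plcb1, a phospholipase C of forebrain neurons, averaged 27.9 TPM in the cerebellum and 133 TPM in the striatum, and Plcb3 averaged 37.7 TPM in the cerebellum. Gna11, the close relative of Gnaq, was at 103 TPM, near Gnaq itself, and Cacna1b, the N-type channel, at 30.7 TPM. Atp2a3, which encodes SERCA3, was the relative with the clearest cerebellar level, at 202 TPM against 5.91 to 6.81 TPM in the other regions.

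In the cerebellum of 175Q mice at 10 weeks 4 of the 6 genes fell below WT and none rose: Inpp5a, Atp2a2, Itpr1 and Plcb4. Over all 20447 genes tested 11.4% were called in either direction, 1393 lower and 937 higher. The median log2 fold change of the 6 was -0.27, against 0.01 over all genes. A gene was called at an adjusted p below 0.05 in edgeR's quasi-likelihood test with sex as a term, and CPM below are scaled within the 12 libraries of a region and age. Lack of overlap between groups is given as a description and was not counted over all genes.

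Inpp5a fell most in this group. It had 314, 335, 340.5 and 311 CPM in the 175Q mice, against 431.5, 473, 473 and 483 CPM in the WT mice. Every 175Q value was below every WT value, and the fold change was -0.52 ± 0.04 on the log2 scale (adjusted p = 1.5e-06).

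Atp2a2, the pump that refills the store, had 843.5, 886, 901 and 941 CPM in 175Q mice, against 1166, 1171, 1190.1 and 1151 CPM in WT mice. The groups did not overlap, and it fell by 0.39 ± 0.04 on the log2 scale (adjusted p = 1.8e-05). Itpr1, the release channel, had 2513, 2797, 2605 and 2821 CPM in 175Q mice, against 3119, 3517, 3435 and 3592 CPM in WT mice. It fell by 0.35 ± 0.06 (adjusted p = 0.00084), again with no overlap. Plcb4 had 321, 341, 322 and 327 CPM in 175Q mice, against 364.5, 377, 388.5 and 378 CPM in WT mice. Its fall was smaller, at 0.20 ± 0.03 (adjusted p = 0.00056), and the 8 values still did not overlap.

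The other two genes did not pass. Gnaq averaged 185 ± 7.79 CPM in 175Q mice and 200.0 ± 5.03 CPM in WT mice, a log2 fold change of -0.11 ± 0.04 (adjusted p = 0.077) with overlapping values; DESeq2 called it, at -0.11 and an adjusted p of 0.031. Cacna1a averaged 444 ± 28.5 CPM in 175Q mice and 473 ± 40.98 CPM in WT mice, a log2 fold change of -0.09 ± 0.05 (adjusted p = 0.33). The 4 calls held in each of 8 fits that left out 1 library and in the fits with other tools and scalings, with an adjusted p of at most 0.0052.

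In 175QK772T cerebella of 10 weeks most values lay between those of the other genotypes. Against 175Q, 3 of the 6 genes were higher in 175QK772T, where 1.19% of all genes were called: Inpp5a, Atp2a2 and Itpr1. Over all genes called there, 228 were higher and 16 lower. Inpp5a had 391.9, 399.6, 421 and 430 CPM in 175QK772T mice, all above the 311 to 340.5 CPM of 175Q mice, a difference of 0.35 ± 0.04 (adjusted p = 0.00050). Atp2a2 had 1074, 1032, 1084 and 999 CPM in 175QK772T mice, all above the 843.5 to 941 CPM of 175Q mice, a difference of 0.23 ± 0.04 (adjusted p = 0.011). Itpr1 had 3024, 3143, 3463 and 3152 CPM in 175QK772T mice, all above the 2513 to 2821 CPM of 175Q mice, a difference of 0.26 ± 0.06 (adjusted p = 0.038). The call of Inpp5a held in every alternative fit, with an adjusted p of at most 0.0062. That of Itpr1 stayed only where 175QK772T replicate 1 was left out, and was lost on leaving out any other of the 8 libraries, with values from 0.22 to 0.30 and adjusted p up to 0.18, and that of Atp2a2 without 175Q replicate 1 or replicate 2, with an adjusted p of at most 0.074.

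Plcb4, Gnaq and Cacna1a did not pass between the mutants. Plcb4 averaged 346 ± 3.56 CPM in 175QK772T mice and 328 ± 9.22 CPM in 175Q mice, a difference of 0.07 ± 0.03 (adjusted p = 0.40) without overlap. Gnaq averaged 199.6 ± 7.66 CPM in 175QK772T mice and 185 ± 7.79 CPM in 175Q mice (0.10 ± 0.04, adjusted p = 0.33). Cacna1a was at 445 ± 25.2 CPM in 175QK772T mice and 444 ± 28.5 CPM in 175Q mice (0.03 ± 0.05, adjusted p = 0.90).

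Against WT, Inpp5a and Plcb4 were lower in 175QK772T cerebella of 10 weeks, where 4.04% of all genes were called. Inpp5a averaged 411 ± 17.9 CPM in 175QK772T mice and 465 ± 22.9 CPM in WT mice, a fall of 0.17 ± 0.04 (adjusted p = 0.046). Plcb4 averaged 346 ± 3.56 CPM in 175QK772T mice and 377 ± 9.85 CPM in WT mice, a fall of 0.13 ± 0.03 (adjusted p = 0.038). Atp2a2, at 1047 ± 39.5 CPM in 175QK772T mice and 1169.5 ± 16.1 CPM in WT mice, did not overlap but missed the threshold (-0.16 ± 0.04, adjusted p = 0.051). Itpr1 was at -0.08 ± 0.06 (adjusted p = 0.56). The calls against WT were weak: that of Plcb4 stayed only without WT replicate 1, and that of Inpp5a only without WT replicate 1 or 175QK772T replicate 3, with adjusted p up to 0.16 and 0.17 in the other fits.

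**Figure D2:**
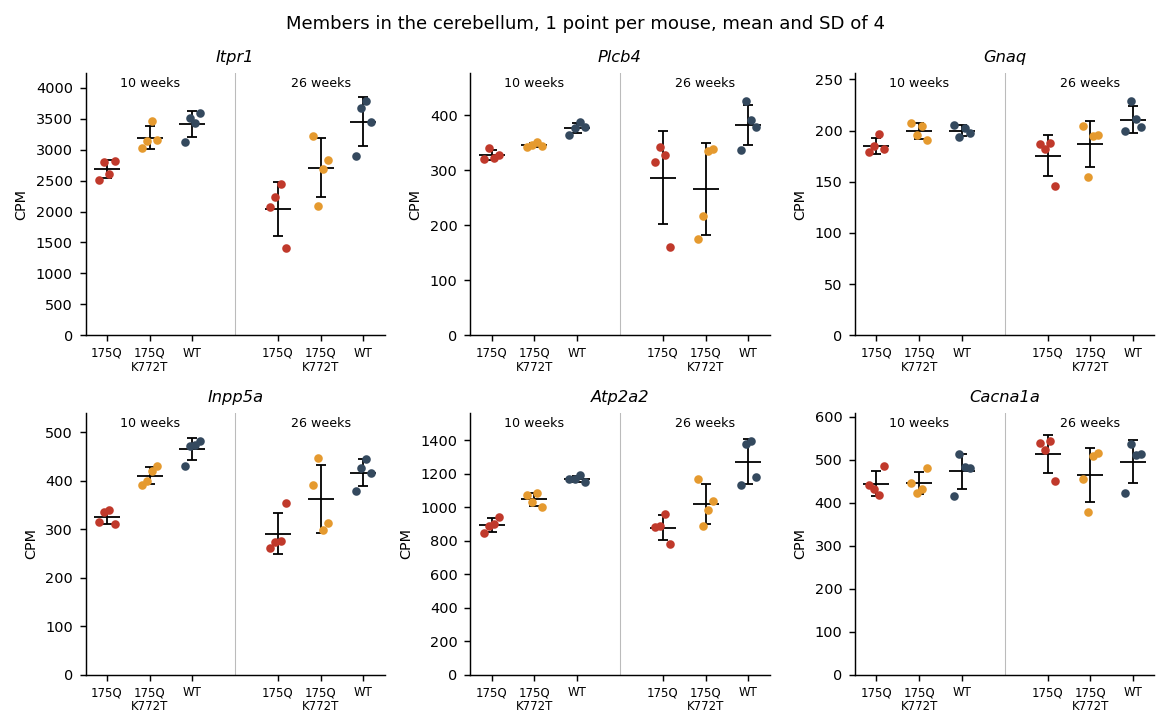
CPM of the 6 genes in the cerebellum at 10 and 26 weeks, 1 point per mouse, with the mean and SD of the 4 mice of each genotype. At 10 weeks the 175Q points of Itpr1, Plcb4, Inpp5a and Atp2a2 lie below all WT points, and at 26 weeks the spread within a genotype is wider.

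Markers of cerebellar cell types were read in the same libraries, and the lists did not all follow these genes. The summed level of 12 Purkinje cell markers ranged over 3703 to 3926 CPM in 175Q, 4845 to 5183 CPM in 175QK772T and 5587 to 6079 CPM in WT cerebella of 10 weeks. Of these markers 11 were lower in 175Q than in WT, 6 were lower in 175QK772T than in WT, and 9 were higher in 175QK772T than in 175Q. The shares of all genes called in these contrasts were 11.4%, 4.04% and 1.19%. The summed level of 10 granule cell markers ranged over 5825 to 6104 CPM in 175Q, 5904 to 6437 CPM in 175QK772T and 6534 to 7500 CPM in WT, with 7 lower in 175Q and 5 lower in 175QK772T than in WT. Of 8 Bergmann glia and astrocyte markers 4 were lower in 175Q than in WT. Their sums were 2793 to 2840 CPM in 175Q, 3020 to 3209 CPM in 175QK772T and 3046 to 3219 CPM in WT. In 175QK772T against 175Q no granule cell marker was called, and 1 of the 8 Bergmann glia and astrocyte markers was higher.

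Oligodendrocyte markers summed to 5730 to 6950 CPM in 175Q, 6504 to 7123 CPM in 175QK772T and 6808 to 7615 CPM in WT, with 1 lower in 175Q than in WT. Markers of interneurons, microglia, endothelium and choroid plexus had no call in 175Q against WT. The choroid plexus sum, a sign of dissection, was uneven, at 2315 to 4296 CPM in 175Q, 1123 to 2480 CPM in 175QK772T and 29.9 to 2443 CPM in WT. No marker of any list was at 0 in all libraries of a set. The part of cell numbers in the values of the 6 genes was not tested.

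At 26 weeks Atp2a2, Inpp5a and Itpr1 were again lower in 175Q than in WT cerebella, where 3.01% of all genes were called, and none of the 6 was higher. Itpr1 had 2070, 2229, 2446 and 1416 CPM in 175Q mice, against 2896, 3674, 3781 and 3446 CPM in WT mice, a fall of 0.76 ± 0.18 (adjusted p = 0.047). Inpp5a had 262, 273, 275.5 and 353 CPM in 175Q mice, against 379, 426, 445 and 417 CPM in WT mice, a fall of 0.53 ± 0.12 (adjusted p = 0.042). Atp2a2 had 881, 888, 958 and 779 CPM in 175Q mice, against 1133, 1377, 1398 and 1183 CPM in WT mice, a fall of 0.54 ± 0.12 (adjusted p = 0.034). The groups did not overlap in these 3 genes or in Gnaq, which was not called.

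The 175Q library of high mitochondrial share, replicate 4, held the lowest Itpr1 and Atp2a2 and the highest Inpp5a of its group. Without it and 175QK772T replicate 2 the same 3 genes passed with smaller errors: Itpr1 at -0.60 ± 0.10 (adjusted p = 0.0032), Inpp5a at -0.60 ± 0.09 (adjusted p = 0.0011) and Atp2a2 at -0.46 ± 0.09 (adjusted p = 0.0060), where 13.5% of all genes were called. With all libraries kept, leaving out 1 of the 8 took away most calls: Itpr1 stayed called only without 175Q replicate 3, Inpp5a only without WT replicate 1 or 175Q replicate 4, and Atp2a2 only without 175Q replicate 3. In those fits the fold changes lay between -0.90 and -0.60, -0.61 and -0.46, and -0.59 and -0.46, with adjusted p up to 0.18, 0.14 and 0.16.

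Plcb4 had 316, 343, 328 and 161 CPM in 175Q mice of 26 weeks, against 337, 426, 391 and 379 CPM in WT mice. It did not pass (-0.44 ± 0.20, adjusted p = 0.32), and without the 2 libraries of high mitochondrial share it was at -0.26 ± 0.15 (adjusted p = 0.29). Gnaq averaged 175.5 ± 19.9 CPM in 175Q mice and 211 ± 12.9 CPM in WT mice, with no overlap and no call (-0.27 ± 0.11, adjusted p = 0.26). Cacna1a averaged 513 CPM in 175Q mice and 495 CPM in WT mice (0.05 ± 0.10, adjusted p = 0.84).

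In 175QK772T cerebella of 26 weeks no gene of the 6 was called by edgeR or DESeq2 in either contrast, with 2 at an unadjusted p below 0.05 in each, and edgeR called none without the 2 libraries of high mitochondrial share, with 4 at an unadjusted p below 0.05 in 175QK772T against WT and 3 in 175QK772T against 175Q. Of all genes 0.298% were called in 175QK772T against WT and 0.0992% in 175QK772T against 175Q. Itpr1 had 3226, 2087, 2682 and 2840 CPM in 175QK772T mice, overlapping both the 1416 to 2446 CPM of 175Q and the 2896 to 3781 CPM of WT mice. Inpp5a averaged 362.5 ± 70.2 CPM and Atp2a2 1020 ± 118 CPM in 175QK772T mice, and both means again lay between those of 175Q and WT. Plcb4 had 174, 217, 336 and 340 CPM in 175QK772T mice, a wide spread. Without those 2 libraries 3.64% of all genes were called in 175QK772T against WT and 8.71% in 175QK772T against 175Q. Itpr1 was then at -0.23 ± 0.10 against WT (adjusted p = 0.23) and 0.37 ± 0.11 against 175Q (adjusted p = 0.056), and Inpp5a at -0.30 ± 0.09 (adjusted p = 0.078) and 0.30 ± 0.09 (adjusted p = 0.064).

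The Purkinje marker sum at 26 weeks was 2732 to 3200 CPM in 175Q, 3554 to 4641 CPM in 175QK772T and 4750 to 5613 CPM in WT, and 6 of the 12 markers were lower in 175Q than in WT. With all libraries kept, no granule cell marker was called then. Of all genes 3.01% were called in 175Q against WT at 26 weeks, against 11.4% at 10 weeks. Marker counts without the 2 libraries of high mitochondrial share were not made. Of the 8 Bergmann glia and astrocyte markers 4 were lower in 175Q than in WT, with sums of 2087 to 2263 CPM in 175Q, 2590 to 2742 CPM in 175QK772T and 2775 to 3114 CPM in WT. Of the 8 oligodendrocyte markers 2 were lower in 175Q, with sums of 3893 to 5158 CPM in 175Q, 4295 to 6056 CPM in 175QK772T and 4850.4 to 5898 CPM in WT. No choroid plexus marker was called, with sums of 20.6 to 3060 CPM in 175Q, 2116 to 4444 CPM in 175QK772T and 23.6 to 1723 CPM in WT. The part of these cells in the values of the 6 genes was not tested.

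The 175Q effect in the cerebellum was not found to differ between the ages for any of the 6 genes: edgeR and DESeq2 called none, and with all libraries kept Itpr1 alone had an unadjusted p below 0.05. Its change was -0.40 ± 0.19 (adjusted p = 0.73), a wide interval, and 0.0332% of all genes were called in that test. Without the 2 libraries of high mitochondrial share edgeR again called none of the 6, where 0.521% of all genes were called. Cacna1a, at 0.21 ± 0.09 (unadjusted p = 0.033, adjusted p = 0.32), was then the gene with an unadjusted p below 0.05, and Itpr1 was at -0.25 ± 0.12 (unadjusted p = 0.056, adjusted p = 0.39).

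To set the 6 genes in their route, 100 other genes in 8 lists were followed in the cerebellum: receptors and scaffolds, Gq and phospholipase C with their regulators, release channels, enzymes of inositol phosphates, pumps and exchangers, channel subunits, calcium-binding proteins with calmodulin kinases, and downstream effectors. At 10 weeks 53 of the 99 tested were called in 175Q against WT, 39 lower and 14 higher, with a median log2 fold change of -0.10, against 0.01 over all genes. In 175QK772T against WT 14 were lower and 7 higher of 99, and in 175QK772T against 175Q 19 were higher and none lower. Of all genes 11.4%, 4.04% and 1.19% were called in these 3 contrasts. In the same order 1393 genes were lower and 937 higher, 507 lower and 319 higher, and 16 lower and 228 higher. The lists were chosen with earlier results of these data known, and Pcp4, Calb1, Car8 and Rgs8 are also among the 12 Purkinje markers. The genes named below were taken from the 3 of smallest adjusted p in 175Q against WT in each list.

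Of the 8 receptors and scaffolds 3 were lower and 1 higher in 175Q. Homer3, a scaffold of the postsynaptic density that binds the IP3 receptor, averaged 222 ± 13.9 CPM in 175Q mice and 290.4 ± 23.5 CPM in 175QK772T mice, against 332 ± 37.4 CPM in WT mice. It fell by 0.58 ± 0.06 in 175Q against WT (adjusted p = 2.4e-05) and was higher by 0.42 ± 0.06 in 175QK772T against 175Q (adjusted p = 0.0031). The scaffold Shank2 fell by 0.49 ± 0.06 in 175Q against WT.

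Of 9 tested genes of G proteins, phospholipases and their regulators 3 were lower and 1 higher in 175Q than in WT at 10 weeks. Plcb3, another phospholipase C beta, had the largest fall of the genes named, with 33.03 ± 2.19 CPM in 175Q mice and 49.1 ± 3.402 CPM in 175QK772T mice, against 67.5 ± 3.22 CPM in WT mice. Its log2 fold change was -1.03 ± 0.05 in 175Q against WT (adjusted p = 1.4e-08) and -0.44 ± 0.05 in 175QK772T against WT (adjusted p = 0.00015). At 26 weeks it was the gene of the 8 lists called in 175QK772T against WT, at -0.64 ± 0.10 (adjusted p = 0.025). Rgs8, a regulator of G protein signalling found in Purkinje cells, averaged 897 ± 45.3 CPM in 175Q and 1309 ± 56.7 CPM in 175QK772T mice, against 1631 ± 112 CPM in WT mice, and fell by 0.86 ± 0.04 in 175Q against WT. Rgs7bp, which anchors RGS proteins at the membrane, fell by 0.19 ± 0.04 in 175Q.

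The release channels went the other way more often, with 3 higher and 1 lower in 175Q of 10 tested. The ryanodine receptors Ryr2 and Ryr3, which let calcium out of the store without IP3, rose by 0.20 ± 0.04 (adjusted p = 0.0067) and 0.34 ± 0.08 (adjusted p = 0.014) in 175Q against WT. Ryr2 averaged 277 ± 14.7 CPM in 175Q and 278 ± 13.7 CPM in 175QK772T mice, against 242 ± 3.61 CPM in WT mice, and its rise in 175QK772T (0.19 ± 0.04, adjusted p = 0.020) was of the same size. Car8, which binds the IP3 receptor and lowers its affinity for IP3, fell by 0.58 ± 0.04 in 175Q and by 0.22 ± 0.04 in 175QK772T against WT.

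Of 13 enzymes of inositol phosphates and phosphoinositides 5 were lower and 1 higher in 175Q. Itpka, the kinase that phosphorylates IP3, averaged 39.1 ± 1.51 CPM in 175Q and 55.2 ± 2.82 CPM in 175QK772T mice, against 64.8 ± 5.25 CPM in WT mice. It fell by 0.73 ± 0.05 in 175Q against WT (adjusted p = 2.4e-07), beside the fall of Inpp5a, which acts on the same molecule. The phosphatases Inpp4a and Inpp5e fell by 0.32 ± 0.03 and 0.25 ± 0.04.

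Among 18 pumps, exchangers and genes of store-operated entry 6 were lower and 2 higher in 175Q. Atp2a3, the SERCA3 gene, averaged 185 ± 7.83 CPM in 175Q and 244 ± 12.4 CPM in 175QK772T mice, against 275 ± 23.1 CPM in WT mice, a fall of 0.57 ± 0.05 in 175Q against WT. Atp2b2, a calcium pump of the cell membrane, fell by 0.36 ± 0.04. Slc8a3, a sodium-calcium exchanger, rose by 0.50 ± 0.05 in 175Q (adjusted p = 7.7e-06) and by 0.39 ± 0.05 in 175QK772T (adjusted p = 0.00035), with 58.9 ± 2.41 CPM in 175Q and 54.3 ± 3.73 CPM in 175QK772T mice, against 41.6 ± 0.899 CPM in WT mice.

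Voltage-gated channel subunits were divided, with 5 lower and 4 higher in 175Q of 14 tested. The beta subunits Cacnb2, Cacnb3 and Cacnb4, which carry pore subunits such as Cacna1a to the membrane, fell by 0.36 ± 0.04, 0.31 ± 0.05 and 0.21 ± 0.03 in 175Q against WT. Cacnb4 averaged 463.5 ± 12.4 CPM in 175Q and 491 ± 14.3 CPM in 175QK772T mice, against 535.5 ± 14.9 CPM in WT mice.

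Calcium-binding proteins and calmodulin kinases had the largest share of falls, 9 of 12, with 1 higher. The calmodulin-binding Pcp4 averaged 26.3 ± 0.200 CPM in 175Q and 36.9 ± 2.38 CPM in 175QK772T mice, against 47.9 ± 2.73 CPM in WT mice, a fall of 0.86 ± 0.05 in 175Q. Camkk2, a kinase that activates other calmodulin kinases, fell by 0.72 ± 0.05 in 175Q and by 0.53 ± 0.05 in 175QK772T. Calb1, the calcium buffer calbindin, averaged 754 ± 23.4 CPM in 175Q and 911 ± 34.4 CPM in 175QK772T mice, against 1087 ± 35.9 CPM in WT mice, and fell by 0.53 ± 0.04 in 175Q.

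Of 15 effectors 7 were lower and 1 higher in 175Q. Dagla, which makes an endocannabinoid from diacylglycerol, fell by 0.74 ± 0.04 in 175Q and by 0.21 ± 0.04 in 175QK772T against WT. Prkg1, a kinase of cerebellar long-term depression, fell by 0.41 ± 0.04 in 175Q and by 0.29 ± 0.04 in 175QK772T.

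At 26 weeks 12 of 98 tested genes of the 8 lists were called in 175Q against WT, 10 lower and 2 higher, with a median of -0.13, against 0.0049 over all genes, of which 3.01% were called. Among them were Plcb3 (-1.18 ± 0.10), Rgs8 (-1.10 ± 0.11), Car8 (-0.94 ± 0.13), Prkg1 (-0.93 ± 0.18), Camkk2 (-0.83 ± 0.09), Shank2 (-0.69 ± 0.09), Atp2a3 (-0.63 ± 0.15) and Calb1 (-0.61 ± 0.13). Without the 2 libraries of high mitochondrial share 37 were called, 28 lower and 9 higher, where 13.5% of all genes were called. In 175QK772T against WT 1 was called, Plcb3, where 0.298% of all genes were, and without those 2 libraries 13 were lower and 4 higher, where 3.64% of all genes were called. In 175QK772T against 175Q edgeR called none, with 14 at an unadjusted p below 0.05 and 7 called by DESeq2, where 0.0992% of all genes were called; without those 2 libraries 16 were higher and 3 lower, where 8.71% of all genes were called.

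**Figure D3:**
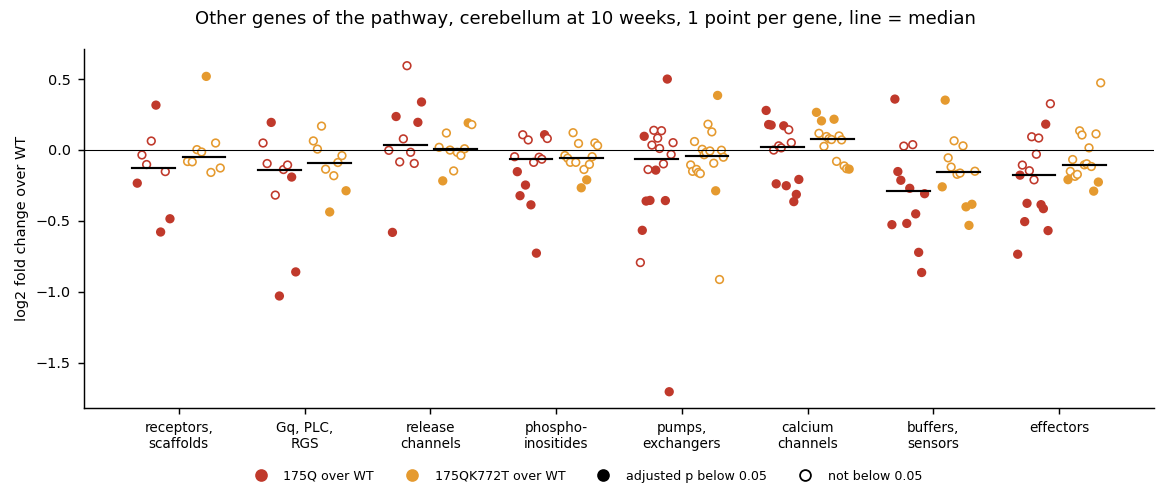
Log2 fold changes over WT of the other genes of the route in the cerebellum at 10 weeks, by list, 1 point per gene, filled where the adjusted p was below 0.05, with the median of each list as a line. In 175Q against WT 39 of 99 tested genes are called lower and 14 higher, with 9 of the 12 calcium-binding proteins and kinases among the lower ones.

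In the striatum the fall of Itpr1 was larger than in the cerebellum. Itpr1 had 591, 527, 548 and 632 CPM in 175Q and 663.5, 713, 682 and 732.5 CPM in 175QK772T mice, against 1230, 1261, 1375 and 1106 CPM in WT mice of 10 weeks. Both mutants were below every WT value, with falls of 1.11 ± 0.07 in 175Q (adjusted p = 2.4e-07) and 0.83 ± 0.07 in 175QK772T (adjusted p = 8.3e-06). The mutants did not overlap, but their difference of 0.28 ± 0.07 missed the threshold (adjusted p = 0.12).

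At 26 weeks striatal Itpr1 had 429, 367, 404 and 391.9 CPM in 175Q and 562, 671, 624.5 and 534.5 CPM in 175QK772T mice, against 1255, 1145, 1028 and 1132 CPM in WT mice. The 3 genotypes formed separate steps. Falls were 1.52 ± 0.09 in 175Q (adjusted p = 7.0e-08) and 0.93 ± 0.09 in 175QK772T (adjusted p = 1.5e-05) against WT, and 175QK772T was higher than 175Q by 0.59 ± 0.09 (adjusted p = 0.0012). All these calls held in each fit that left out 1 library. The 175Q effect at 26 minus that at 10 weeks was -0.41 ± 0.11 on the log2 scale (adjusted p = 0.024), and Itpr1 was the gene of the 6 called in that test, where 8.09% of all genes were. That call was lost in 5 of 16 fits that left out 1 library, namely 10-week WT replicate 4, 10-week 175Q replicate 4, 26-week WT replicate 1 and 26-week 175Q replicates 2 and 3, with values from -0.46 to -0.36 and adjusted p up to 0.067.

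Inpp5a and Atp2a2 fell with it, Gnaq rose, and Plcb4 and Cacna1a were not called in the striatum. Inpp5a averaged 54.99 ± 0.398 CPM in 175Q and 58.2 ± 0.851 CPM in 175QK772T mice, against 73.2 ± 5.42 CPM in WT mice of 10 weeks, with falls of 0.41 ± 0.05 and 0.34 ± 0.05. Atp2a2 averaged 671 CPM in 175Q and 730 CPM in 175QK772T mice, against 940 CPM in WT mice, with falls of 0.48 ± 0.06 and 0.37 ± 0.06. Gnaq averaged 171 CPM in 175Q and 172 CPM in 175QK772T mice, against 155 CPM in WT mice, a rise of 0.14 ± 0.05 in 175Q (adjusted p = 0.040). So 4 of 6 passed in 175Q against WT, where 32.7% of all genes did, 3 of 6 in 175QK772T against WT, where 19% did, and none in 175QK772T against 175Q, where 0.6% did; in the last, 1 gene had an unadjusted p below 0.05 and DESeq2 called 1. The rise of Gnaq stayed called only without WT replicate 2, with values from 0.11 to 0.16 and adjusted p up to 0.12.

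At 26 weeks the striatal counts were 4 of 6 in 175Q against WT, 3 of 6 in 175QK772T against WT and 3 of 6 in 175QK772T against 175Q, where 45.4%, 23.4% and 13.6% of all genes were called. Inpp5a averaged 45.7 CPM in 175Q and 51.5 CPM in 175QK772T mice, against 70.8 CPM in WT mice, with falls of 0.63 ± 0.05 and 0.46 ± 0.05. Atp2a2 averaged 584 CPM in 175Q and 694 CPM in 175QK772T mice, against 891 CPM in WT mice, with falls of 0.61 ± 0.07 and 0.36 ± 0.07. Between the mutants Inpp5a was higher in 175QK772T by 0.18 ± 0.05 (adjusted p = 0.037) and Atp2a2 by 0.25 ± 0.07 (adjusted p = 0.028). Gnaq rose by 0.20 ± 0.07 in 175Q against WT (adjusted p = 0.026). These last 3 calls were weak: Inpp5a lost its call in 6 of 8 fits that left out 1 library, kept without 175QK772T replicate 3 or 175Q replicate 1, with adjusted p up to 0.10. Atp2a2 lost it without 175QK772T replicate 2 or 3 or 175Q replicate 1 or 2 (up to 0.093), and Gnaq without WT replicate 1 or 4 or 175Q replicate 1 or 4 (up to 0.076).

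The 8 markers of striatal projection neurons moved in the same order as Itpr1. Their sum was 2101 to 2415 CPM in 175Q, 2391 to 3248 CPM in 175QK772T and 5054 to 6915 CPM in WT striata of 10 weeks, and 499 to 737 CPM in 175Q, 1144 to 2062 CPM in 175QK772T and 4048 to 6636 CPM in WT striata of 26 weeks. At 10 weeks 7 of 8 were lower in each mutant than in WT. At 26 weeks 8 of 8 were lower in each mutant than in WT and 8 of 8 higher in 175QK772T than in 175Q. Several markers of other cells were lower too in 175Q than in WT striata. At 10 weeks the lower ones were 6 of 6 endothelial, 6 of 8 astrocyte, 5 of 8 oligodendrocyte, 5 of 8 microglial and 4 of 8 interneuron markers. At 26 weeks they were 6 of 6 endothelial, 6 of 8 astrocyte, 1 of 8 oligodendrocyte, 7 of 8 microglial and 5 of 8 interneuron markers. At each age 1 interneuron marker was higher, and at 10 weeks so was 1 of 6 choroid plexus markers. Of all genes 32.7% were called in 175Q and 19% in 175QK772T against WT striata at 10 weeks. At 26 weeks the shares were 45.4% and 23.4%, and 13.6% in 175QK772T against 175Q.

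Astrocyte markers summed to 1115 to 1361 CPM in 175Q, 1215 to 1384 CPM in 175QK772T and 1519.7 to 1709 CPM in WT striata of 10 weeks, and to 962 to 1184 CPM in 175Q, 1047 to 1184 CPM in 175QK772T and 1308 to 1383 CPM in WT striata of 26 weeks. Endothelial markers summed to 134 to 158 CPM in 175Q, 134 to 168 CPM in 175QK772T and 206 to 226 CPM in WT striata of 10 weeks, and to 150.1 to 179 CPM in 175Q, 179 to 229 CPM in 175QK772T and 223 to 250.5 CPM in WT striata of 26 weeks. In both lists every WT sum was above every 175Q sum at each age, and the part of all these cells in the values of Itpr1, Inpp5a, Atp2a2 and Gnaq was not tested.

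**Figure D4:**
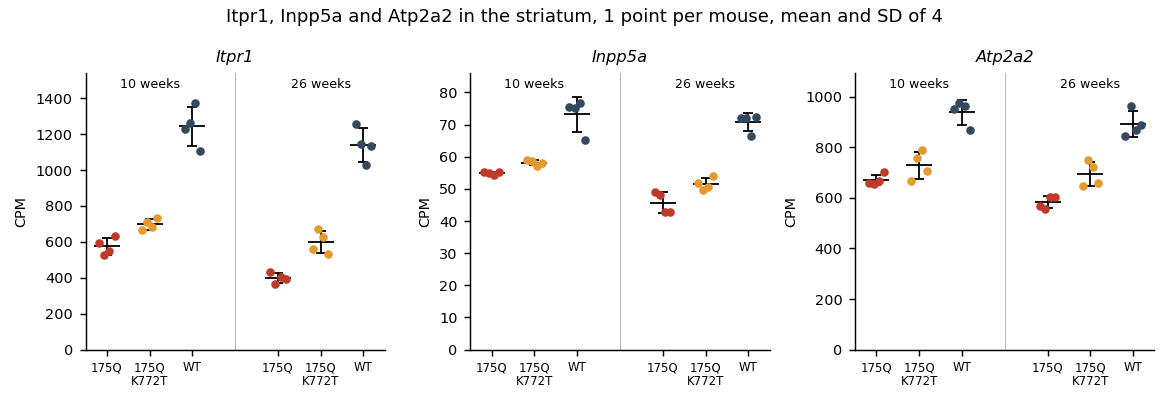
CPM of Itpr1, Inpp5a and Atp2a2 in the striatum at 10 and 26 weeks, 1 point per mouse, with the mean and SD of 4. Itpr1 at 26 weeks forms 3 separate steps, with 367 to 429 CPM in 175Q, 534.5 to 671 CPM in 175QK772T and 1028 to 1255 CPM in WT.

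In the cortex at 10 weeks all 6 genes were called in 175Q against WT, 5 lower and Gnaq higher, where 38.2% of all genes were called. Itpr1 had 574, 579, 574 and 599 CPM in 175Q and 573, 616, 622 and 596 CPM in 175QK772T mice, against 816, 883, 764.5 and 870 CPM in WT mice. Its falls were 0.52 ± 0.04 in 175Q and 0.45 ± 0.04 in 175QK772T. Plcb4 fell by 0.52 ± 0.07 and 0.46 ± 0.07, with 65.1 to 75.3 CPM in 175Q and 63.5 to 79.6 CPM in 175QK772T mice, against 89.9 to 111 CPM in WT mice.

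Inpp5a, Atp2a2 and Cacna1a fell by 0.26 ± 0.04, 0.36 ± 0.04 and 0.23 ± 0.04 in 175Q. The cortex at 10 weeks was the one set of the 10 in which Cacna1a was called with all libraries kept, with 191 to 200 CPM in 175Q and 185 to 204 CPM in 175QK772T mice, against 218 to 250 CPM in WT mice. Gnaq averaged 250.4 CPM in 175Q and 232 CPM in 175QK772T mice, against 225 CPM in WT mice, and rose by 0.15 ± 0.04 in 175Q (adjusted p = 0.0034). In 175QK772T against WT the same 5 genes were lower, where 25.9% of all genes were called, and Gnaq was not called (0.05 ± 0.04). Between the mutants none was called, with 1 at an unadjusted p below 0.05 and none by DESeq2, where 1.05% of all genes were called. All 11 calls of this set held without any 1 library.

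Markers of several cell types were lower in these 175Q cortices than in WT: 7 of 8 for astrocytes, 6 of 8 for oligodendrocytes, 5 of 6 for endothelium, 4 of 8 for microglia and 4 of 8 for interneurons, with 2 of the last higher. In 175QK772T against WT 3 astrocyte and 3 interneuron markers were lower, 1 interneuron marker was higher and no oligodendrocyte, endothelial or microglial marker was called. Of all genes 38.2% were called in 175Q and 25.9% in 175QK772T against WT cortices. Of 6 choroid plexus markers 5 were higher in 175QK772T against WT. Their sums were 9.14 to 800 CPM in 175QK772T cortices, with a median of 17.7 CPM, and 4.42 to 18.7 CPM in WT cortices. The astrocyte markers summed to 1035 to 1152 CPM in 175Q, 1224 to 1270.3 CPM in 175QK772T and 1376 to 1473 CPM in WT cortices, and the oligodendrocyte markers to 3592 to 4953 CPM in 175Q, 4353 to 5714 CPM in 175QK772T and 4234 to 5581 CPM in WT cortices. The astrocyte sums did not overlap between the 3 genotypes, those of oligodendrocytes did, and their part in the values of the 6 genes was not tested.

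The 26-week cortex rests on the WT library that stood apart, replicate 1. Itpr1 had 494, 491, 513 and 464 CPM in 175Q and 559, 591.5, 604 and 587 CPM in 175QK772T mice, against 348.5, 766, 854 and 806 CPM in WT mice, the lowest being that library. With it, Plcb4, Inpp5a and Atp2a2 were lower in 175Q than in WT, where 31.6% of all genes were called, at -0.69 ± 0.15, -0.35 ± 0.07 and -0.56 ± 0.06, and Itpr1 was not called (-0.49 ± 0.20, adjusted p = 0.088). Without it 5 were lower, where 44.8% of all genes were called: Itpr1 by 0.72 ± 0.05, Plcb4 by 0.47 ± 0.06, Inpp5a by 0.28 ± 0.06, Atp2a2 by 0.59 ± 0.04 and Cacna1a by 0.24 ± 0.05.

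In 175QK772T against WT, where 8.83% of all genes were called, Plcb4 and Atp2a2 were lower with that library (-0.63 ± 0.15 and -0.35 ± 0.06), and Itpr1, Plcb4 and Atp2a2 without it (-0.47 ± 0.05, -0.41 ± 0.06 and -0.38 ± 0.04), where 22.9% of all genes were called. The call of Plcb4 with it was lost without 175QK772T replicate 1, 2 or 3, with an adjusted p of at most 0.076. In 175QK772T against 175Q, where 3.46% of all genes were called, none of the 6 passed with the library kept, 1 having an unadjusted p below 0.05 and 1 being called by DESeq2. Without it Itpr1 was higher in 175QK772T by 0.26 ± 0.04 (adjusted p = 0.00031), Atp2a2 by 0.21 ± 0.04 (adjusted p = 0.00097) and Cacna1a by 0.14 ± 0.04 (adjusted p = 0.029), where 23.4% of all genes were called. The mutant libraries are the same in both fits. The library left out can enter this contrast through the genes tested, the scaling, the sex term and the estimate of spread. The part of each was not tested. With all libraries kept, 7 of 8 oligodendrocyte, 5 of 8 interneuron, 4 of 8 astrocyte, 3 of 8 microglial and 2 of 6 endothelial markers were lower in 175Q than in WT cortices of 26 weeks. Of all genes 31.6% were called in that fit. WT replicate 1 had the highest oligodendrocyte sum, and an interneuron sum of 910 CPM against 384 to 402 CPM in the other WT cortices. Marker counts without it were not made, and the part of these cells was not tested.

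In the hippocampus the changes were small and lay in Itpr1, Atp2a2 and Gnaq. Itpr1 had 394, 415, 429 and 450 CPM in 175Q and 426, 445, 449 and 448 CPM in 175QK772T mice, against 555.5, 563.5, 540.4 and 476 CPM in WT mice of 10 weeks. It fell by 0.34 ± 0.06 in 175Q and 0.27 ± 0.06 in 175QK772T, and at 26 weeks by 0.32 ± 0.06 and 0.28 ± 0.06. Atp2a2 fell by 0.23 ± 0.04 in 175Q and 0.16 ± 0.04 in 175QK772T at 10 weeks, and by 0.37 ± 0.04 and 0.22 ± 0.04 at 26 weeks. Gnaq, which was higher in 175Q in the 10-week cortex and in the striatum at both ages, fell here by 0.16 ± 0.05 at 10 weeks (adjusted p = 0.042) and 0.16 ± 0.04 at 26 weeks (adjusted p = 0.0059).

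Atp2a2 had 616, 604, 662 and 606 CPM in 175Q and 707, 678, 709 and 664 CPM in 175QK772T hippocampi, against 813.5, 811, 823 and 774 CPM in WT hippocampi of 26 weeks, without overlap between genotypes. It was the gene of the 6 called in 175QK772T against 175Q there (0.15 ± 0.04, adjusted p = 0.032), where 15.7% of all genes were, and the call was lost without 175QK772T replicate 1 or 3 or 175Q replicate 4 (adjusted p up to 0.11). Against WT 3 genes were called in 175Q and 2 in 175QK772T at each age, where 19.6% and 10.8% of all genes were called at 10 weeks and 40.8% and 19% at 26 weeks. Between the mutants at 10 weeks none was called by edgeR or DESeq2 and none had an unadjusted p below 0.05, where 0.0332% of all genes were called. The 10-week call of Gnaq in 175Q stayed only without WT replicate 4 or 175Q replicate 4 (-0.20 to -0.12, adjusted p up to 0.12), and that of Atp2a2 in 175QK772T only without WT replicate 4 or 175QK772T replicate 3 (up to 0.15). Of the markers, 6 of 8 for astrocytes and 5 of 8 for interneurons were lower in 175Q than in WT hippocampi at 10 weeks. At 26 weeks 6 of 8 for astrocytes, 6 of 8 for interneurons, 8 of 8 for microglia and 4 of 6 for endothelium were lower. At each age 1 interneuron marker was higher. The part of these cells in the values was not tested.

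In the brainstem at 10 weeks edgeR called none of the 6 in any contrast, where 2.93% of all genes were called in 175Q against WT, 0.0331% in 175QK772T against WT and 0.0568% in 175QK772T against 175Q. In those contrasts 2, 0 and 1 had an unadjusted p below 0.05, and DESeq2 called 2, 0 and 0. The smallest adjusted p in 175Q against WT were those of Cacna1a (0.14 ± 0.04, adjusted p = 0.059) and Atp2a2 (-0.12 ± 0.04, adjusted p = 0.11). Itpr1 had 204, 108, 117 and 113 CPM in 175Q and 175, 121, 137 and 153 CPM in 175QK772T mice, against 123, 119, 176 and 124 CPM in WT mice. The 175Q library at 204 CPM also had 27.3 CPM of the granule cell gene Gabra6 and the highest granule marker sum of its group, 581 CPM, and the WT library at 176 CPM had a choroid plexus sum of 5202 CPM. The part of neighbouring tissue in these values was not tested.

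In the medulla at 26 weeks Inpp5a alone was called in 175Q against WT, where 18.5% of all genes were. It had 56.2, 54.9, 56.6 and 53.6 CPM in 175Q and 60.998, 57.9, 57.4 and 60.97 CPM in 175QK772T mice, against 60.4, 63.8, 60.9 and 64.8 CPM in WT mice. All 175Q values were below all WT values, a fall of 0.17 ± 0.04 (adjusted p = 0.0086) that held without any 1 library. Astrocyte and oligodendrocyte markers were lower in 175Q medullae too, 5 of 8 each. So were 3 of 12 Purkinje cell and 2 of 10 granule cell markers, beside 18.5% of all genes called. Purkinje marker sums were 186 to 214 CPM in 175Q and 249.6 to 329 CPM in WT medullae. WT replicate 4, with the highest Inpp5a, had 17.1 CPM of Gabra6 and the highest granule marker sum, 522 CPM. Choroid plexus sums were 59.4 to 2789 CPM in 175Q and 1042 to 3777 CPM in WT medullae. The part of these cells and of neighbouring tissue was not tested. Itpr1 was at -0.37 ± 0.17 in 175Q and in 175QK772T (adjusted p = 0.15 and 0.31). In 175QK772T against WT and against 175Q, where 2.08% and 9.46% of all genes were called, edgeR called none of the 6; 2 and 1 had an unadjusted p below 0.05, and DESeq2 called 1 and none.

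Over the 10 sets of region and age Atp2a2 was lower in 175Q than in WT in 8, Itpr1 and Inpp5a in 7 each, Plcb4 in 3 and Cacna1a in 1. Gnaq was the gene that went both ways, higher in 3 sets and lower in 2. Against WT, 175QK772T was lower in 6 sets for Atp2a2, 5 for Itpr1, 4 for Inpp5a, 3 for Plcb4 and 1 for Cacna1a, and Gnaq was called in none. In 175QK772T against 175Q all calls were higher in 175QK772T: 3 sets for Atp2a2 and 2 each for Itpr1 and Inpp5a. The 3 contrasts of a set share mice, and the 5 regions of an age come from the same mice, so these counts are not independent. Of all genes 2.93% to 45.4% were called in these sets in 175Q against WT. The shares were 0.0331% to 25.9% in 175QK772T against WT and 0.0332% to 15.7% in 175QK772T against 175Q. These counts keep all libraries. Without the WT cortex library that stood apart, Itpr1 and Cacna1a were lower too in the 26-week 175Q cortex. Itpr1 was then lower in 175QK772T too, and Itpr1, Atp2a2 and Cacna1a were higher in 175QK772T than in 175Q.

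**Figure D5:**
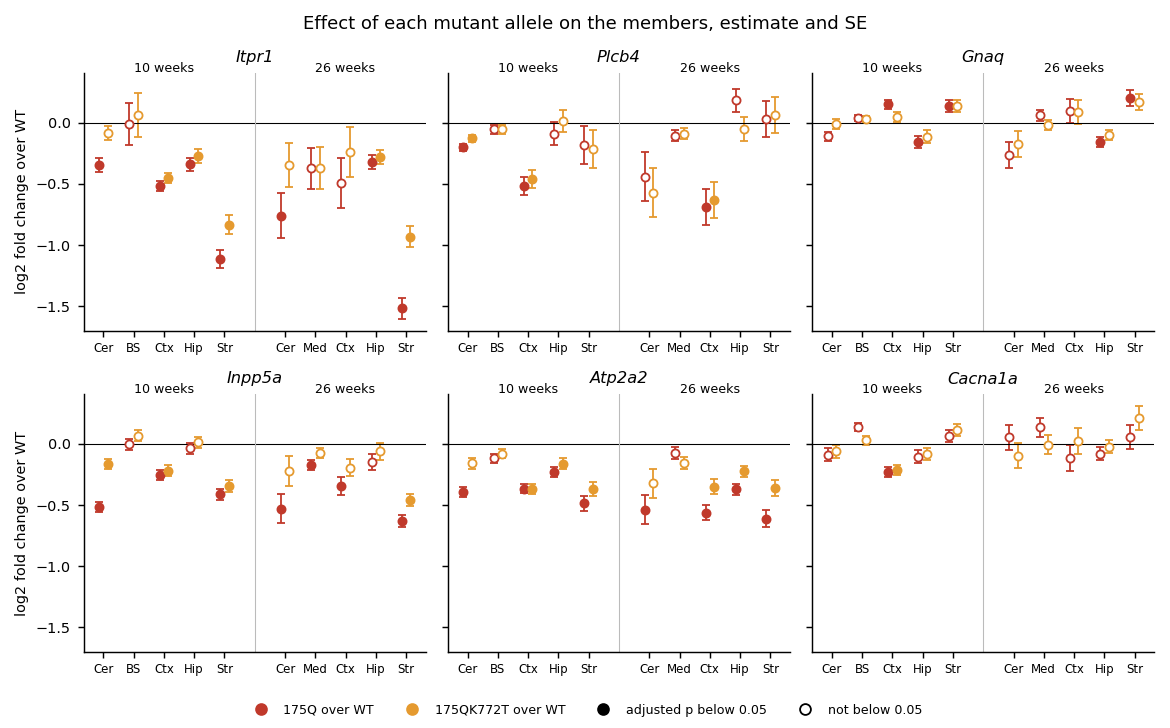
Log2 fold changes over WT, with SE, of 175Q and 175QK772T for each gene, by region (Cer cerebellum, BS brainstem, Med medulla, Ctx cortex, Hip hippocampus, Str striatum) and age, filled where the adjusted p was below 0.05. Itpr1 lies lowest in the striatum, at -1.11 and -1.52 in 175Q, and Gnaq in 175Q lies above 0 in the striatum and below 0 in the hippocampus at both ages.

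Whether the cerebellum differed from the other regions was tested as a difference of effects, cerebellum minus the mean of the other 4 regions. At 10 weeks the 175Q effect differed for Inpp5a (-0.34 ± 0.05, adjusted p = 5.2e-07), lower in the cerebellum than in that mean, and for Gnaq (-0.16 ± 0.05, adjusted p = 0.017), where 12% of all genes were called. Against the striatum alone, given below, Inpp5a was not called. The call of Gnaq was lost without the mice of WT replicate 3 or 175Q replicate 1 (-0.19 to -0.13 over the 8 fits, adjusted p up to 0.079). Itpr1 (0.14 ± 0.12, adjusted p = 0.55), Plcb4 (0.01 ± 0.11), Atp2a2 (-0.09 ± 0.05, adjusted p = 0.23) and Cacna1a (-0.06 ± 0.05) were not called.

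The difference between the mutants was larger in the cerebellum for Inpp5a (0.28 ± 0.05, adjusted p = 0.00059), where 0.255% of all genes were called. With the mouse as a block, since each mouse gave all 5 regions, Atp2a2 was called too (0.19, adjusted p = 0.028), against 0.19 ± 0.05 and 0.081 without it; over all its alternatives the adjusted p of Inpp5a reached 0.016 at most.

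At 26 weeks the 175Q effect in the cerebellum differed from that in the other regions for Gnaq (-0.31 ± 0.09, adjusted p = 0.023), where 13.4% of all genes were called. Without the 2 libraries of high mitochondrial share Gnaq was at -0.24 ± 0.09 (adjusted p = 0.071) and Inpp5a was called at -0.30 ± 0.08 (adjusted p = 0.012), where 9.24% of all genes were called. Without the WT cortex library as well both were called, at -0.20 ± 0.06 (adjusted p = 0.018) and -0.31 ± 0.08 (adjusted p = 0.0040), where 13.6% of all genes were called. The call of Gnaq was also lost without the mouse of WT replicate 2 or of 175Q replicate 4 (adjusted p up to 0.17). The difference between the mutants was not larger or smaller in the cerebellum for any of the 6 by edgeR or DESeq2, with none at an unadjusted p below 0.05, where 0.227% of all genes were called. Without the 3 libraries edgeR again called none, with 1 at an unadjusted p below 0.05, where 254 of 22728 genes were called.

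Cerebellum and striatum were then compared directly, a test added after the striatal values were seen. The 175Q effect on Itpr1 was less negative in the cerebellum than in the striatum by 0.77 ± 0.16 at 10 weeks (adjusted p = 0.00021) and 0.76 ± 0.24 at 26 weeks (adjusted p = 0.021). That on Gnaq was lower in the cerebellum at both ages, with differences of -0.25 ± 0.06 (adjusted p = 0.0015) and -0.46 ± 0.12 (adjusted p = 0.0036). No other gene of the 6 was called, and 20.2% of all genes were called at 10 weeks and 19.6% at 26 weeks. The 175Q effect on Inpp5a differed by -0.10 ± 0.06 at 10 weeks (adjusted p = 0.29) and 0.11 ± 0.12 at 26 weeks (adjusted p = 0.56). Without the mouse of 175Q replicate 2 or 3 the 26-week call of Itpr1 was lost (0.63 to 0.90 over the 8 fits, adjusted p up to 0.074). Both 26-week calls stayed without the 2 cerebellar libraries rich in mitochondrial counts, at 0.90 ± 0.24 for Itpr1 (adjusted p = 0.0040) and -0.38 ± 0.11 for Gnaq (adjusted p = 0.0061), where 19.4% of all genes were called.

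In the other regions compared between ages, the 175Q effect on the 6 genes was called in none of cortex and hippocampus by edgeR or DESeq2, where 1.86% and 9.92% of all genes were called. In each, 1 gene, Atp2a2, had an unadjusted p below 0.05, with changes of -0.19 ± 0.07 in cortex and -0.16 ± 0.06 in hippocampus. Without the 26-week WT cortex library that stood apart Atp2a2 was called in the cortex, at -0.22 ± 0.06 (adjusted p = 0.016), where 9.46% of all genes were called.

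As a description of likeness, each gene was set against 11510 others over the 30 group means of region, age and genotype, in log2 CPM centred on the age. Most like Inpp5a were Chn2 (Pearson r = 0.993), Kcnj12 (0.990) and Trim62 (0.990). Most like Itpr1 were Cmya5 (0.986), Taf4 (0.980) and Camk4 (0.979), and most like Plcb4 were Cgrrf1 (0.989), Rnf152 (0.986) and Pik3ca (0.983). Cacna1a ran most like Tecpr1 (0.981), Cadm3 (0.975) and Zbtb46 (0.970), and Gnaq most like Faah (0.966), Dyrk3 (0.960) and Cnrip1 (0.960). Atp2a2 had the least close partners, Sema7a (0.942), Fam168a (0.901) and Reep2 (0.894). The 30 means share libraries' dissections and differ mostly by region, so these values carry no p.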

How the data were processed

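Brain RNA of 24 mice was sequenced from 120 libraries, poly(A)-selected and read as pairs of 150 nt, per the labels' protocols. Submitters' processing notes name bcl2fastq 2.20.0, Trimmomatic 0.33, HISAT2 2.1.0 and featureCounts of Subread 1.6.2. The values deposited by the authors are raw counts of read pairs per gene; the 10-week table was counted on Ensembl GRCm38.97 with pairs mapped at both ends, mapping quality from 10 up, and reverse strand, per the file headers. Some 26-week descriptions name the line 154Q and 154QKT; the genotype field was used.

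The 6 genes, the 8 lists, the 9 marker lists, the naming rule and the tests were chosen with earlier results of these data known. Each set of 12 libraries was fitted alone in edgeR 4.0.16 (R 4.3.3, filterByExpr, TMM, genotype and sex, quasi-likelihood test, Benjamini-Hochberg over all genes tested); region and age differences were interaction terms in joint fits. TPM were computed from counts and exonic length. The naming rule took all 6 genes, the 3 genes of smallest adjusted p in 175Q against WT per list in the 10-week cerebellum, the 3 genes of highest r over group means for genes of at least 5 CPM (prior count 2), relatives by level and Atxn1. A few of the genes it picks are left out of the text. Alternatives were DESeq2 1.42.0, RLE scaling, no filter on low counts, a replicate block, a fit with sex left out, each library or mouse left out, and fits without the 3 doubted libraries. Scripts were tested on simulated data. Within groups, all libraries differed by more than counting noise. The 5 regions of a mouse are paired by animal; with the mouse as a block the one call between regions that changed is given beside its result.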

Additional observations from a re-analysis of the deposited data

Results flagged for a closer look

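Of 180 groups of 4 mice, 12 held a highest or lowest value whose gap to the next took a larger share of the group's range than Dixon's 95% critical value; chance alone gives about 1 in 20 groups. Of these, 3 were 175Q replicate 4 of the 26-week cerebellum, the library of 13.5% mitochondrial counts, with Plcb4 at 160.6 CPM (315.6 to 342.6 in the other 3), Gnaq at 145.9 CPM (181.8 to 187.5) and Inpp5a at 353.4 CPM (261.6 to 275.5). The WT cortex library that stood apart at 26 weeks, replicate 1, was high in Plcb4, at 133.8 CPM (80.65 to 89.45). In the 10-week brainstem Itpr1 was high in 175Q replicate 1, at 203.9 CPM (108.3 to 116.8), and in WT replicate 3, at 175.7 CPM (119.2 to 124.4).

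The others were Itpr1 in the 10-week hippocampus of 175QK772T replicate 1, at 426.2 CPM (444.8 to 448.6), Inpp5a in the striatum of WT replicate 4 at 10 weeks, at 65.14 CPM (75.31 to 76.78), and of WT replicate 3 at 26 weeks, at 66.53 CPM (72.09 to 72.34). In the 26-week medulla Atp2a2 was high in 175QK772T replicate 3, at 812.2 CPM (757.6 to 763.3), and Cacna1a low in 175QK772T replicate 1, at 93.71 CPM (124.1 to 130.02). In the 26-week cortex Atp2a2 was high in 175Q replicate 2, at 656.7 CPM (619.5 to 625.5).

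Effects that differed between groups by an interaction test in edgeR were these. The 175Q effect on striatal Itpr1 was -0.41 at 26 minus 10 weeks (adjusted p = 0.024). In cerebellum minus the mean of the other regions it was -0.16 for Gnaq (adjusted p = 0.017) and -0.34 for Inpp5a (adjusted p = 5.2e-07) at 10 weeks, and -0.31 for Gnaq (adjusted p = 0.023) at 26 weeks. The 175QK772T minus 175Q difference of Inpp5a was 0.28 larger in the cerebellum at 10 weeks (adjusted p = 0.00059). In cerebellum minus striatum the 175Q effect differed by 0.77 for Itpr1 (adjusted p = 0.00021) and -0.25 for Gnaq (adjusted p = 0.0015) at 10 weeks, and by 0.76 (adjusted p = 0.021) and -0.46 (adjusted p = 0.0036) at 26 weeks.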

How the results depend on the processing

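Among the 6 genes 77 results were called, with 982 values under alternatives, of which 867 kept their call, 115 lost it and none changed sign; fits that leave out a library have fewer samples, and otherwise the cause was not tested. Of 175 results not called, 48 of 2522 values under alternatives gained the call and 133 changed sign. Leaving out 1 library or mouse at a time, the count of genes called in the cerebellum of 10 weeks ranged from 4 to 5 (175Q against WT), 0 to 2 (175QK772T against WT) and 1 to 3 (175QK772T against 175Q), and at 26 weeks from 0 to 2, 0 to 0 and 0 to 0. Over the other 4 regions it ranged from 11 to 13, 9 to 10 and 0 to 0 at 10 weeks, and from 10 to 13, 6 to 9 and 2 to 4 at 26 weeks. It ranged from 0 to 0 (cerebellum) and 0 to 2 (other regions) for age, from 1 to 2 and 1 to 1 for cerebellum against other regions at 10 weeks, from 0 to 1 and 0 to 0 at 26 weeks, from 2 to 3 and 1 to 2 for cerebellum against striatum, and from 5 to 6 and 5 to 5 for WT regions. For the 8 lists it ranged from 44 to 55, 16 to 25 and 16 to 20 at 10 weeks and from 6 to 16, 0 to 1 and 0 to 1 at 26 weeks.

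Replicate numbers did not pair mice across genotypes, as their deviations did not correlate in every pair. With the replicate block the counts were 1 (cerebellum 10 weeks, 175QK772T against WT), 1 (against 175Q), 0 (cerebellum 26 weeks, 175Q against WT), 2 (other regions 26 weeks, 175QK772T against 175Q), 0 (age, other regions), 2 (cerebellum against other regions, 175QK772T against 175Q) and, for the 8 lists at 26 weeks, 6 (175Q against WT) and 0 (175QK772T against WT). Without the sex term the counts were 1 (cerebellum 10 weeks, 175QK772T against WT), 1 (cerebellum 26 weeks, 175Q against WT) and 7 (8 lists, 26 weeks, 175Q against WT). With no filter on low counts they were 1 (other regions 10 weeks, 175QK772T against 175Q), 1 (cerebellum 26 weeks, 175QK772T against WT), 2 (age, other regions) and, for the 8 lists, 35 and 31 at 10 weeks (175QK772T against WT and 175Q) and 23, 11 and 3 at 26 weeks. DESeq2 gave 1 (other regions 10 weeks, 175QK772T against 175Q), 2 (cerebellum against other regions, same contrast) and, for the lists, 32 (10 weeks, 175QK772T against WT) and 21, 7 and 7 at 26 weeks. Leaving out both cerebellar libraries rich in mitochondrial counts, the lists gave 37, 17 and 19 at 26 weeks. Without the WT cortex library the other regions gave 7 at 26 weeks (175QK772T against 175Q), and without all 3 the cerebellum differed from other regions in 2 genes (175Q against WT). Without both cerebellar libraries rich in mitochondrial counts the counts of the 6 genes in the 26-week cerebellum were 3, 0 and 0. Libraries of 26 weeks held 28.03 to 57.3 M counted read pairs, against 68.2 to 104 M at 10 weeks, and depth and age cannot be told apart.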
